A study of Homo sapiens with 4 samples.

Results

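Open chromatin far from genes was described in 786-O cells, an established line from a human clear cell renal cell carcinoma, by the assay for transposase-accessible chromatin with sequencing (ATAC-seq). Peaks of 4 libraries that overlapped by at least 1 bp were merged, which gave 53572 regions. A region was counted as a desert region when it lay outside every protein-coding gene span and more than 100 kb from the nearest end of one, in the RefSeq annotation of GRCh38.p14. This rule found 6178 desert regions, 11.5% of all, and used position alone, not peak strength or treatment. They were compared with 13651 nearer regions between genes, 22198 regions inside a gene span and 11545 regions within 1 kb of a gene end.

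Cells of the ACSS2i group received 5 µM ACSS2i, an inhibitor of acetyl-CoA synthetase 2, for 24 h, and cells of the DMSO group received the solvent alone for the same time. Each group held 2 libraries. All 4 came from the same line, which lacks functional VHL protein and therefore keeps hypoxia-inducible factor 2α at normal oxygen. The labels do not say whether replicates were grown apart, so a p-value over libraries reflects their spread alone, and that spread can be purely technical.

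Tn5 transposase cuts DNA where nucleosomes are absent or loose, and a peak marks such a stretch. Open stretches far from genes are often enhancers, which can act on a promoter across long distances, or insulator sites and starts of noncoding RNAs. ACSS2 makes acetyl-CoA from acetate, and part of this acetyl-CoA is used to acetylate histones. The nearest gene is given below as a landmark, since these data do not show which gene a region acts on.

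A desert is poor in protein-coding genes but can hold noncoding ones. The starts of such genes are the desert stretches for which sequence was at hand, and 6 are shown with their neighbourhood because they carry both outcomes described below: 4 with a peak in all 4 libraries and 2 with a peak in both DMSO libraries and neither ACSS2i library. They are the strongest in DMSO of each kind whose window lay wholly within a desert region, among the chromosomes whose sequence is printed here. Each window runs from 250 bases before to 50 after the annotated start, on the strand of the gene, from RefSeq for GRCh38.p14. Capitals mark matches on either strand to the short motifs searched. The letters TGANTCA stand for AP-1, a factor of early response and of enhancers. The letters ACGTG are the core of the hypoxia response element, which HIF binds, and a palindrome of them was counted on each strand. The letters GGAATG stand for TEAD, the partner of YAP1. The CCAAT box was searched as those letters, the GC box of many promoters as GGGCGG, and the TATA box, which places the start of transcription, as TATAAA.

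The window of the long noncoding RNA (lncRNA) gene LINC03006 is chr7:65750875-65751174 on the minus strand, 114 kb from VKORC1L1. It holds 2 CCAAT boxes and 1 GC box.
LINC03006: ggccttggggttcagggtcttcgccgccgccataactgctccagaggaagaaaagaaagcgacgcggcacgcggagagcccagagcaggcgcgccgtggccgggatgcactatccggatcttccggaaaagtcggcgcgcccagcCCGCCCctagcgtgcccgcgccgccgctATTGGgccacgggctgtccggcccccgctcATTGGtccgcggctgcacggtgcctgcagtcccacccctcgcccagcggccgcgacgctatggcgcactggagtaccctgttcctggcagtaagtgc
The window of LINC01271 is chr20:50321293-50321592 on the minus strand, 128 kb from CEBPB, a gene for a transcription factor of inflammation and differentiation. It holds 2 AP-1 matches and 2 GC boxes.
LINC01271: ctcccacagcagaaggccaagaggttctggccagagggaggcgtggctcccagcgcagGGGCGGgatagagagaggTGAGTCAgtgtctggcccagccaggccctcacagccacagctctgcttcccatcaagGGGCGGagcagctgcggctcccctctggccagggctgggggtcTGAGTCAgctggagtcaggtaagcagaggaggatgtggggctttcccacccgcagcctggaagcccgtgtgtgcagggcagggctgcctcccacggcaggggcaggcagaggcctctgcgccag
The window of LOC389602 is chr7:155962307-155962606 on the plus strand, 149 kb from SHH. It holds 1 AP-1 match, 1 GC box and 1 CCAAT.
LOC389602: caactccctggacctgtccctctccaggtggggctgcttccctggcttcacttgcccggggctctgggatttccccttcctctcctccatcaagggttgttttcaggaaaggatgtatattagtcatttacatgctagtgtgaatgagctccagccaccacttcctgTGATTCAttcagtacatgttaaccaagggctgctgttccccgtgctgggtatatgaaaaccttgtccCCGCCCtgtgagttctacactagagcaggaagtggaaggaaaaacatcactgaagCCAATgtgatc
The window of LINC01508 is chr9:90433440-90433739 on the minus strand, 176 kb from DIRAS2. It holds 1 palindrome with the hypoxia core on both strands, 1 TEAD match and 1 TATAAA.
LINC01508: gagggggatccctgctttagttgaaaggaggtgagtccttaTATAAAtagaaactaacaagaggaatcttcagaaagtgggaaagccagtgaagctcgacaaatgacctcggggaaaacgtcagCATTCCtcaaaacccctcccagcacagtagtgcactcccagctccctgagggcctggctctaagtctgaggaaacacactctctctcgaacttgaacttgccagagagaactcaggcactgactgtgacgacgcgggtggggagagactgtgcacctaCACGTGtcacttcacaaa
The window of LOC124904517 is chr1:221845679-221845978 on the plus strand, 103 kb from DUSP10, and it had no peak in either ACSS2i library. It holds 1 CCAAT and 1 TATAAA.
LOC124904517: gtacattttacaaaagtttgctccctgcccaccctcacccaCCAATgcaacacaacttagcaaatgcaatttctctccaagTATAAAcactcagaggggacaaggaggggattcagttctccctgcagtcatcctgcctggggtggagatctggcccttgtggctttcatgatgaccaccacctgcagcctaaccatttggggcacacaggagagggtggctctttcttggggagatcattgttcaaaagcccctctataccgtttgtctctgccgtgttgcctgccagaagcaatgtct
The window of LOC105369406 is chr11:80137096-80137395 on the plus strand, 696 kb from TENM4, and it too had no peak in either ACSS2i library. It holds 1 AP-1 match.
LOC105369406: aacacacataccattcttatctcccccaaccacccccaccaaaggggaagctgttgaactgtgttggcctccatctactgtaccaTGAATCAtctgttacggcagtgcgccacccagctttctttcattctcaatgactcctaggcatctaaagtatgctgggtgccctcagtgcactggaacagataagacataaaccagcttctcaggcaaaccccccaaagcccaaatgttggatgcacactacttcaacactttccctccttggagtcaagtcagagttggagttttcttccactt

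The fold enrichment of a peak, a value of the authors, is the pileup at its strongest summit over the local background of that library, with 1 added to each. At LINC03006 it was 7.70 and 7.12 in ACSS2i replicates 1 and 2, against 9.65 and 14.1 in DMSO replicates 1 and 2. At LINC01271 it was 5.15 and 4.43 in ACSS2i, against 11.0 and 12.1 in DMSO. At LOC389602 it was 7.05 and 5.45 in ACSS2i, against 9.13 and 10.4 in DMSO. In these 3 regions both ACSS2i values were below both DMSO values, as in 82.2% of all regions called in all 4 libraries. The windows were chosen by DMSO strength, which by itself favours higher DMSO values. LINC01508 had 8.44 and 9.67 in ACSS2i, against 8.71 and 13.8 in DMSO, so the groups overlapped there. LOC124904517 had 6.27 and 8.63 in the DMSO libraries, and LOC105369406 had 6.04 and 10.1. At LINC03006 the summit lay 6 and 71 bases before the annotated start in ACSS2i, against 83 and 67 in DMSO.

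The parts of the genome more than 100 kb from every protein-coding gene made up 1663 deserts of 892 Mb in all, 30.0% of the 2971 Mb between the outermost genes of the chromosomes. A further 23 desert regions lay beyond the outermost genes. Of the deserts 1071 held at least 1 region. There were 6.90 desert regions per Mb of desert, against 22.8 regions per Mb elsewhere. Desert regions were narrow, with a median width of 401.5 bp, against 591 bp for the rest and 1051 bp at gene ends. Their widths ran from 154 to 3424 bp. The median distance to a gene was 242 kb, and 311 regions lay over 1 Mb away.

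The lists differed in length throughout the genome, with 16400 and 22044 peaks in ACSS2i, against 34696 and 50294 in DMSO. The genome background, the lowest background coverage that the peak caller used, was 2.32 and 3.16 reads in ACSS2i, against 2.06 and 1.75 in DMSO. The ACSS2i libraries thus had fewer peaks over a higher background, and the part of this in the results below was not tested. As a check of the cell type, gene ends of renal tubule markers had a peak for 5 and 6 of 8 genes in ACSS2i, against 6 and 6 in DMSO, among them KRT8 and KRT18. Clear cell carcinoma and mesenchymal markers had one for 1 and 4 of 6 in ACSS2i, against 4 and 4 in DMSO, with VIM in all libraries, and none for CA9 or NNMT. Of 5 immune and 4 endothelial genes, 1 had a peak (CD14, in DMSO replicate 2), and 4 neuronal genes had 1 and 2 in ACSS2i, against 3 and 3 in DMSO.

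Fewer desert regions were called in the ACSS2i libraries. They numbered 1139 and 2141 in ACSS2i, against 3160 and 5182 in DMSO. The mean was 1640 ± 709 in ACSS2i and 4171 ± 1430 in DMSO (SD, n = 2 each), a ratio of 0.393, and the groups did not overlap (two-sided exact permutation test of the library labels, p = 0.333, and no smaller value is possible with 2 against 2). With all lists cut to the 16400 strongest peaks the numbers were 1142 and 1260 in ACSS2i, against 1207 and 1119 in DMSO, so the groups overlapped and the ratio was 1.03.

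As a share of each library's regions, deserts took 7.30% and 10.1% in ACSS2i, against 9.31% and 10.4% in DMSO. The mean was 8.69% ± 1.96 in ACSS2i and 9.86% ± 0.785 in DMSO (SD, n = 2 each), a difference of -1.18 percentage points (two-sided exact permutation p = 0.667). The sign of this difference rested on ACSS2i replicate 1, without which it was 0.214. In lists of equal length the shares were 7.29% and 7.81% in ACSS2i, against 7.38% and 6.84% in DMSO. Desert regions were weaker than the median region in every library: their median percentile of −log10 q was 43.8 and 33.2 in ACSS2i, against 40.1 and 39.6 in DMSO (difference of means -1.39, two-sided exact permutation p = 1). The spread between the ACSS2i libraries was wider than the gap between the groups for both measures.

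**Figure D1:**
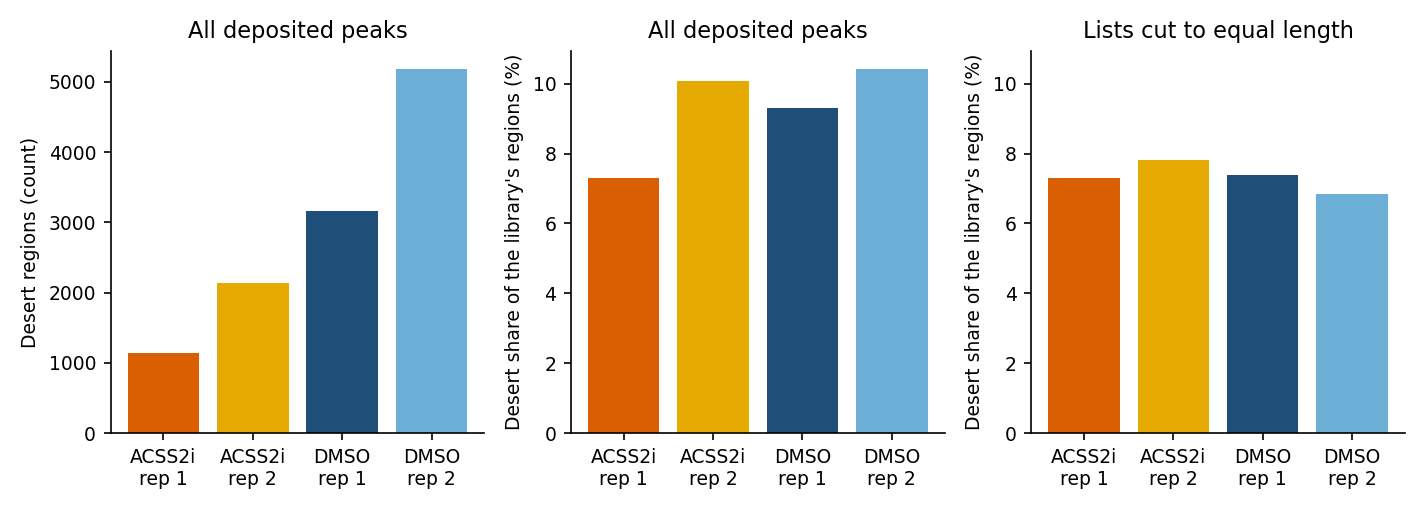
Desert regions per library as a count (left), as a percent of that library's regions (middle) and as the same percent after each list was cut to the 16400 strongest peaks (right), with 1 bar for each of the 4 libraries. The counts are 1139 and 2141 in ACSS2i, against 3160 and 5182 in DMSO, while the shares at equal length lie between 6.84% and 7.81%.

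Both DMSO libraries called 2778 desert regions. Of these 1188 had no peak in either ACSS2i library, 42.8% (exact binomial 95% interval 40.9 to 44.6%, counting error only), and are called lost below. The same was true of 33.5% of all regions and of 32.6% of those outside deserts, with 39.2% between genes, 37.9% inside genes and 20.7% at gene ends. A peak in all 4 libraries was found for 881 desert regions, 31.7% (30.0 to 33.5%), against 42.2% over all regions. The count of lost regions rested on DMSO replicate 1, the shorter DMSO list: without it, 3456 of 5221 desert regions of DMSO replicate 2 were lost, 66.2%, beside 55.9% of all regions. The count in all 4 rested on ACSS2i replicate 1, without which it was 1450. In each of the 12 alternatives run, the lost share was higher in deserts than over all regions, and the share in all 4 was lower.

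Loss went with weakness in DMSO. Regions in both DMSO libraries were put in 4 tiers of equal size by the lower of their 2 DMSO percentiles. The weakest tier held 886 desert regions, of which 77.4% were lost, against 74.6% of the regions outside deserts. In the second tier 48.7% of 770 desert regions were lost, against 43.4% elsewhere, and in the third 19.1% of 643, against 13.8%. In the strongest tier 4 of 479 desert regions were lost, 0.835%, against 0.919%. The weakest tier held 31.9% of the desert regions of both DMSO libraries, against 24.3% of those outside deserts, and the strongest held 17.2%, against 25.8%. When the other classes were given the tier make-up of the desert regions, the lost share was 42.8% in deserts, against 42.9% between genes, 40.9% inside genes and 32.8% at gene ends.

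**Figure D2:**
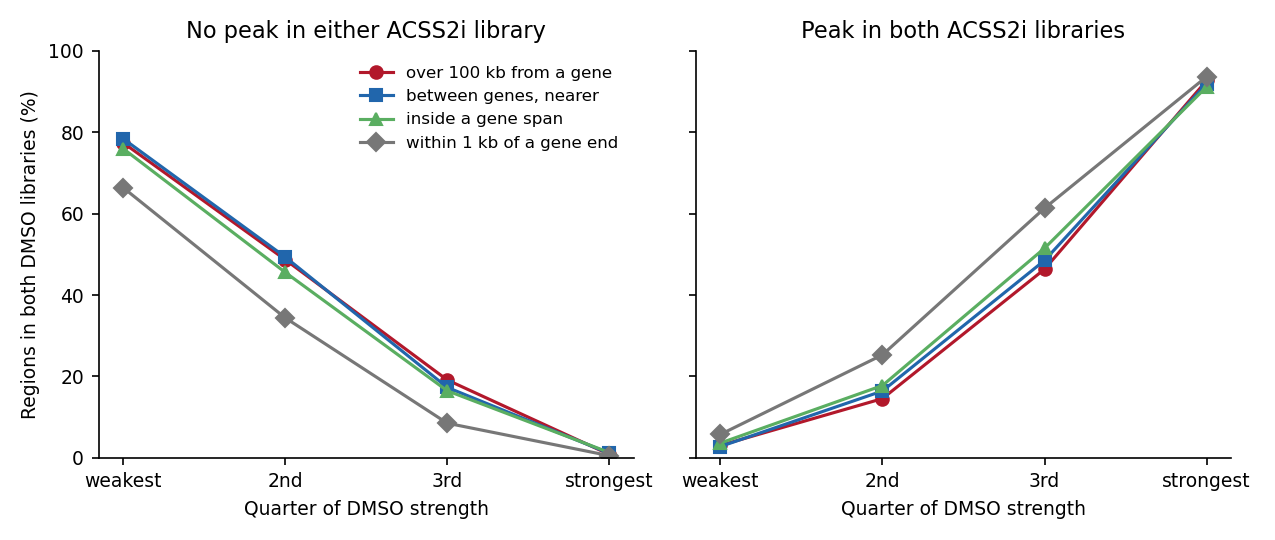
Percent of regions of both DMSO libraries with no peak in either ACSS2i library (left) and with a peak in both (right), by tier of DMSO strength, for desert regions and 3 nearer classes. The desert line falls to 0.835% in the strongest tier, against 77.4% in the weakest, and lies close to the lines of nearer intergenic and intragenic regions.

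In lists of equal length, 68 of 877 desert regions were lost, 7.75%, beside 6.41% of all regions. A peak in all 4 was then found for 648, 73.9%, beside 77% of all. Of those 68 regions, 46 were lost in the full lists too. Gains at equal length numbered 58 of 800 desert regions in both ACSS2i libraries, 7.25%, beside 4.16% of all.

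The signal within the regions that were called in every library was lower in the ACSS2i libraries. Over the 881 desert regions of all 4 libraries, the median pileup at the summit was 8.64 and 8.53 times the genome background in ACSS2i, against 17.98 and 37.8 times in DMSO. The ratio of the group means was 0.308 (two-sided exact permutation p = 0.333, the smallest possible), and it was 0.290 outside deserts. Median fold enrichment was 4.82 and 5.10 in ACSS2i, against 7.09 and 10.3 in DMSO. The fold enrichment of both ACSS2i libraries was below that of both DMSO libraries in 734 of the 881 desert regions, 83.3%, beside 82.2% of all regions in all 4, so deserts were close to the background. It was above in 6 desert regions, 0.681%, beside 0.383% of all. Fold and q are relative to each library's own background, so these ratios move with it.

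The strongest desert region in both groups was chr17:26603696-26604299, between KCNJ18 and WSB1. Its fold enrichment was 47.4 and 43.0 in ACSS2i, against 35.9 and 39.5 in DMSO, higher in both ACSS2i libraries. It lies in the longest stretch of chromosome 17 without an annotated gene, and on most chromosomes that stretch includes the centromere, where repeats can collect reads. A second such region, chr1:125180070-125180404, had 43.1 and 37.1 in ACSS2i, against 33.6 and 31.7 in DMSO, again higher in both ACSS2i libraries. The longest gene-free stretches held 34 desert regions in all, of which 18 and 23 had a peak in ACSS2i, against 15 and 17 in DMSO.

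The other 6 of the 8 strongest desert regions in DMSO lay outside such stretches. Both near MYC, which encodes a transcription factor that drives growth, kept a peak in every library. The one 206 kb from MYC, chr8:127949159-127950635, had a fold enrichment of 8.07 and 7.04 in ACSS2i, against 9.57 and 12.6 in DMSO. The one 433 kb from MYC, chr8:128175804-128177615, had 8.75 and 8.96 in ACSS2i, against 8.95 and 12.7 in DMSO, where 1 ACSS2i value reached that of DMSO replicate 1. The region 126 kb from STC2, the gene of the secreted glycoprotein stanniocalcin 2, is chr5:173454489-173455806 and had 9.29 and 9.59 in ACSS2i, against 10.9 and 13.3 in DMSO. The region 139 kb from SHH, the gene of the Sonic hedgehog ligand, is chr7:155951112-155952337 and had 6.83 and 6.62 in ACSS2i, against 9.71 and 11.99 in DMSO. The region 106 kb from SDK1, a cell adhesion gene, is chr7:3194586-3195339 and had 7.68 and 5.00 in ACSS2i, against 11.2 and 15.9 in DMSO. The region 283 kb from C8orf90, chr8:141801835-141803269, had 7.62 and 6.12 in ACSS2i, against 9.95 and 12.7 in DMSO. Both ACSS2i values were below both DMSO values in these regions, except for the second MYC region, where replicate 2 was level with DMSO replicate 1. Both were below in 82.2% of all regions called in all 4 libraries. The regions were chosen by DMSO strength, which by itself favours higher DMSO values, so their values are a description.

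The strongest regions of the ACSS2i libraries were taken from those called in all 4 libraries. Among them, chr1:55428900-55430141 lies 214 kb from USP24, which encodes a deubiquitinase. Its fold enrichment was 10.1 and 10.2 in ACSS2i, against 10.1 and 13.3 in DMSO. The region 134 kb from FAM3C, chr7:121530231-121531120, had 9.15 and 9.56 in ACSS2i, against 10.8 and 14.8 in DMSO. Besides the chromosome 17 and chromosome 1 regions above, chr16:34581253-34581658 was also higher in both ACSS2i libraries, with 7.69 and 8.02 in ACSS2i, against 2.07 and 7.18 in DMSO. Its DMSO libraries were far apart, at percentiles 6.92 and 68.8 of their lists.

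The strongest lost region was chr1:47569782-47570272, 129 kb from FOXD2, a forkhead transcription factor gene, with a fold enrichment of 7.76 and 9.29 in DMSO. The next were chr11:29282117-29282528, 727 kb from the potassium channel gene KCNA4, with 8.40 and 12.2, and chr8:124866538-124866902, 106 kb from ZNF572, with 7.59 and 10.7. The region chr8:122664118-122664642, 116 kb from ZHX2, had 6.66 and 10.7, and was also among the 5 strongest lost at equal list length. The lower DMSO percentile of the 5 strongest lost regions lay between 73.5 and 76.4, so no desert region above percentile 76.4 in both DMSO lists was lost. At equal length the strongest lost region was chr7:116395314-116395721, 104 kb from CAV2, a caveolin gene, and it did have a weaker peak of fold 3.59 in the full list of ACSS2i replicate 2, against 7.26 and 11.5 in DMSO. Regions near TFAP2A, LOC124902536 and H2BC11 likewise kept a peak in ACSS2i replicate 2, of fold 3.84, 2.98 and 3.603.

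The regions of both DMSO libraries just inside the 100 kb rule lay near AREG, KHDRBS3, COL6A3 and SNX13, and those just outside it near LOC124901498, KIF2B, ITPRID2 and FRK. The AREG region, of fold 5.48 and 7.71 in DMSO, had no ACSS2i peak, and the KHDRBS3 region had 4.70 in ACSS2i replicate 2 and none in replicate 1, against 5.38 and 11.8 in DMSO. Outside the rule, the region 99.9 kb from KIF2B had 4.75 and 5.33 in ACSS2i, against 7.68 and 8.78 in DMSO, and the region 99.9 kb from FRK had no ACSS2i peak and 7.06 and 7.69 in DMSO.

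Gained regions, called in both ACSS2i libraries and neither DMSO library, numbered 8 of the 899 desert regions of both ACSS2i libraries, 0.890% (0.385 to 1.75%), beside 0.0897% over all regions. They made up 8 of the 12 gained regions of the genome and were 179 to 566 bp wide. The strongest was chr6:61322949-61323134, 219.5 kb from KHDRBS2, with a fold enrichment of 32.6 and 30.2 in ACSS2i. The next were chr1:143214651-143214872, with 22.0 and 16.3, and chr1:123755564-123755820, with 11.2 and 10.3, and then chr21:8420428-8420606, with 9.65 and 13.2. Of the 8, 3 lay in the longest gene-free stretches, among them 1 of the 2 on chromosome Y. The region 253 kb from FGF10, chr5:44046409-44046974, was weak, at 3.90 and 2.90. This count moved with the libraries used: without DMSO replicate 2, the longest list, it was 18 of 894, 2.01% beside 0.560% of all regions. Without ACSS2i replicate 1 it was 538 of 2141, 25.1% beside 5.42%. Without ACSS2i replicate 2 it was 84 of 1140, 7.37% beside 1.69%.

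Desert regions were frequent among the regions called in ACSS2i lists alone. Of the 1400 regions that any ACSS2i library and no DMSO library called, 614 were desert regions, 43.9%. Put the other way, 25.8% of the 2381 desert regions in any ACSS2i list had no DMSO peak, beside 5.97% over all regions and 3.73% outside deserts. Nearly all came from 1 library, with 530 in ACSS2i replicate 2 alone and 76 in ACSS2i replicate 1 alone. Deserts made up 46.6% of all regions called in ACSS2i replicate 2 alone and 30.4% of those in ACSS2i replicate 1 alone, against 15.5% in DMSO replicate 1 alone and 13.0% in DMSO replicate 2 alone. They made up 6.62% of the regions in all 4 libraries.

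These regions were weak and narrow. The 530 of ACSS2i replicate 2 had a median width of 238 bp, a median −log10 q of 2.72 and a median fold enrichment of 3.20, at a median of 411 kb from a gene. With a −log10 q of at least 5 asked of the peak, 12 of 16 regions in ACSS2i replicate 1 and 17 of 37 in replicate 2 without a DMSO peak were desert regions, beside a desert share of 6.52% and 7.58% among all regions of these libraries at that threshold. The lowest 10% of a list, by q, held 14.0% and 22.0% of the desert regions in ACSS2i, against 14.6% and 13.3% in DMSO. Of the desert regions of ACSS2i replicate 2, 68.2% also had a peak in DMSO replicate 1 and 74.4% in DMSO replicate 2, against 93.1% and 96.7% of its other regions.

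**Figure D3:**
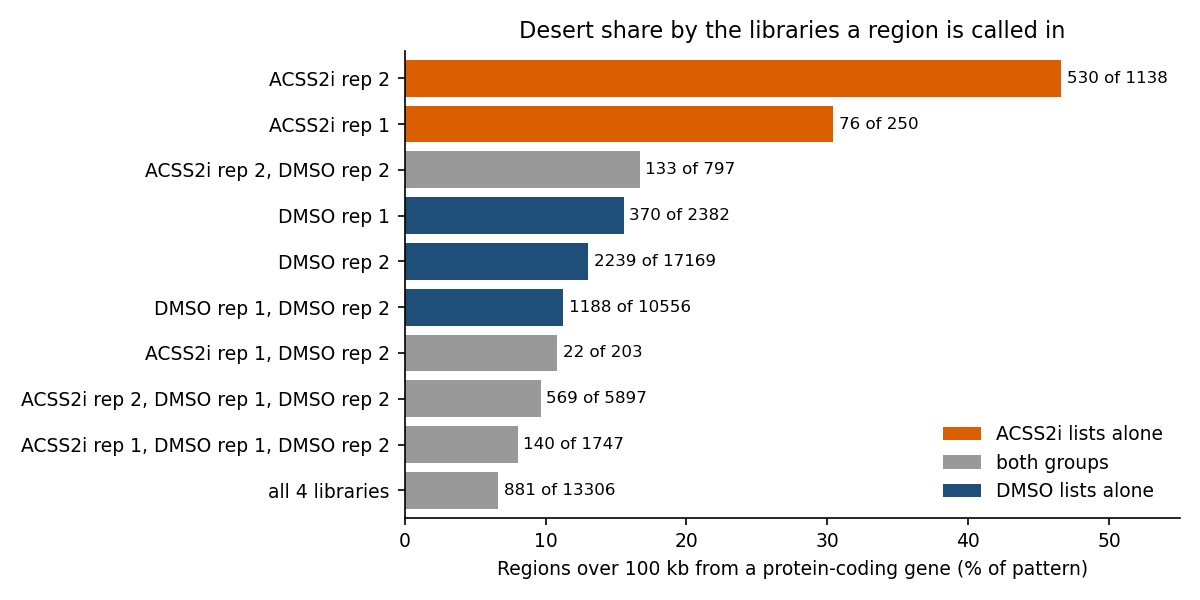
Desert regions as a percent of all regions with a given pattern of presence, for patterns of at least 200 regions, with the counts at the bar ends. Regions called in 1 ACSS2i library alone stand highest, at 46.6% and 30.4%, and regions of all 4 libraries lowest, at 6.62%.

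The share called in ACSS2i lists alone went up with distance, while loss did not. Of the 2480 desert regions 100 to 200 kb from a gene, 4.76% were in ACSS2i lists alone. The share was 10.4% of 2400 at 200 to 500 kb, 16.0% of 987 at 500 to 1000 kb and 28.6% of 311 beyond 1000 kb. The lost share over the same bins was 42.4%, 43.1%, 42.1% and 47.3%, the last from 44 of 93 regions.

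It also varied by chromosome. Chromosome 8 held 113 such regions, 2.44 per Mb of desert, chromosome 7 held 75, 1.93 per Mb, and chromosome 5 held 79, 1.22 per Mb. Chromosomes 14, 22 and X held none. The local background at regions outside deserts, which is at least 1 in multiples of the genome background, was 1.82 on chromosome 8, 1.83 on chromosome 7 and 1.69 on chromosome 5 in ACSS2i replicate 2. It was 1.00 on chromosomes 14 and X in that library and 1.62 on chromosome 22. It was highest on chromosome 20, at 1.95, and was 1.82 on chromosome 16. These chromosomes held 0.294 and 0.376 desert regions in ACSS2i lists alone per Mb of desert. Over 23 chromosomes, Y left out, Spearman's rho between this background and the number per Mb was 0.59, a description of points that share 1 library. Copies of a chromosome and accessibility cannot be told apart in these data.

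**Figure D4:**
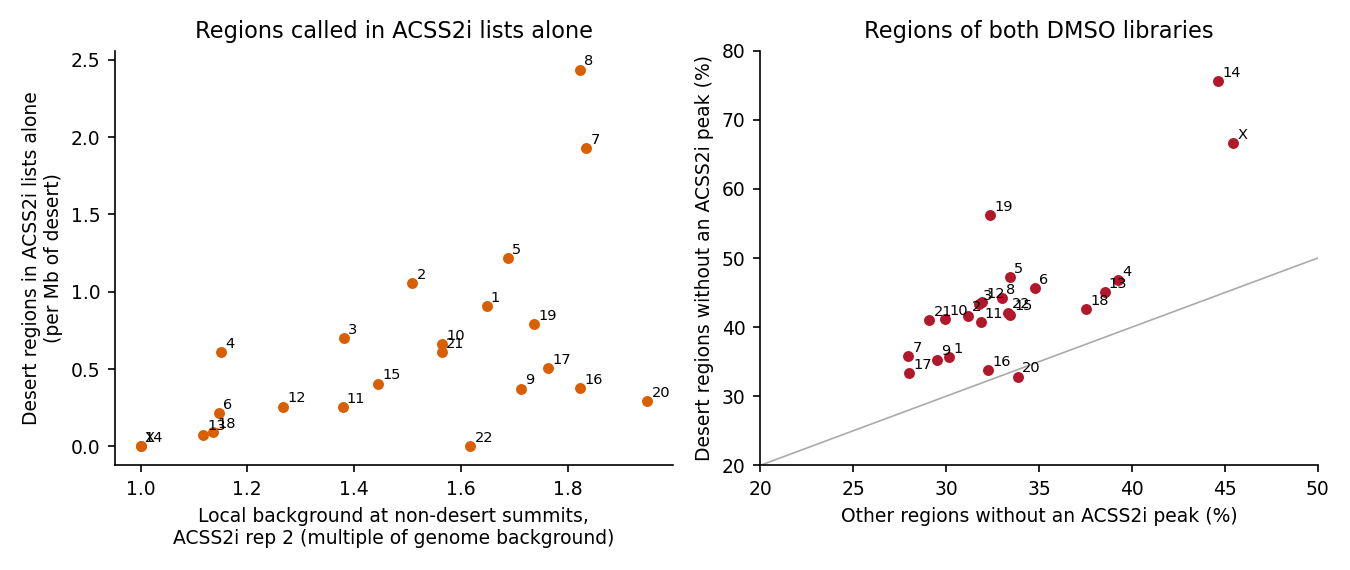
Left, desert regions in ACSS2i lists alone per Mb of desert against the local background at non-desert summits of ACSS2i replicate 2, with 1 point per chromosome except Y. Right, percent of regions of both DMSO libraries without an ACSS2i peak in deserts against the same outside deserts, where the line marks equal values and all chromosomes but 20 lie above it.

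Loss also varied by chromosome. Among the chromosomes with at least 50 desert regions in both DMSO libraries, the lost share was lowest on chromosome 20, at 32.8% in deserts against 33.9% elsewhere, and highest on X, with 50 of 75 lost, 66.7% in deserts against 45.4% elsewhere. Chromosome 14, with 41 such regions, lost 31, 75.6% in deserts against 44.7% elsewhere. On these chromosomes the local background in deserts was 1.00 in both ACSS2i libraries for X and 14, beside 1.51 and 1.23 for chromosome 20. Over the same 23 chromosomes, rho between the lost share in deserts and the background of ACSS2i replicate 2 outside deserts was -0.63, again as a description, and the part of the background in the lost shares was not tested.

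Desert regions were crowded in places. Chains with gaps of at most 20 kb and at least 3 regions are called clusters here, and there were 456, with 1813 regions, 29.3% of all desert regions. With gaps of 10 kb there were 258, and with 50 kb 665. Of the clustered regions in both DMSO libraries, 37.2% were lost, beside 43.6% of those in pairs and 47.5% of those alone. The share in ACSS2i lists alone was 3.36% in clusters, 7.10% in pairs and 15.4% for single regions. Clusters did not go as units: of 155 clusters with at least 3 regions in both DMSO libraries, all of these were lost in 10 and none in 31, and 95 held both a lost region and a region of all 4 libraries.

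The largest cluster, chr8:127851431-127926649, held 15 regions within 75.2 kb, beginning 108 kb from MYC. There 10 and 10 regions had a peak in ACSS2i, against 13 and 15 in DMSO, and 9 were in all 4. A second of 14 regions, chr2:215660509-215796609, lies between FN1, the gene of the matrix protein fibronectin, and MREG, and had 8 and 9 in ACSS2i, against 11 and 14 in DMSO. The cluster chr8:125579271-125700873 of 14 regions lies 141 kb from TRIB1, a pseudokinase gene, and had 4 and 4 in ACSS2i, against 7 and 14 in DMSO. The cluster chr7:130875328-130966966 of 13 regions, between KLF14 and MKLN1, had 8 and 9 in ACSS2i, against 12 and 13 in DMSO. In each of the 4 clusters both ACSS2i counts were below both DMSO counts, as they were for desert regions as a whole. The clusters were chosen by their number of regions, all of which had a peak in DMSO replicate 2. That choice by itself favours higher DMSO counts, so the counts are a description.

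The desert from MYC to GSDMC held the most regions, 59 in 1.96 Mb. Of these 24 and 29 had a peak in ACSS2i, against 42 and 57 in DMSO. Of the 41 in both DMSO libraries 14 were lost, 34.1%, and 23 were in all 4, 56.1%. The median fold enrichment was 5.35 and 4.86 in ACSS2i, against 5.21 and 7.53 in DMSO, over the regions called in each library. The local background there was 2.22 and 2.08 times the genome background in ACSS2i, against 2.85 and 2.98 in DMSO. Within 500 kb of MYC, 18 and 18 of 31 regions had a peak in ACSS2i, against 25 and 31 in DMSO. Between 500 and 1000 kb the counts were 2 and 6 of 14 in ACSS2i, against 9 and 13 in DMSO, and beyond 1000 kb they were 4 and 5 of 14 in ACSS2i, against 8 and 13 in DMSO. Lost regions numbered 6 of 25, 6 of 9 and 2 of 7 in these bins.

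**Figure D5:**
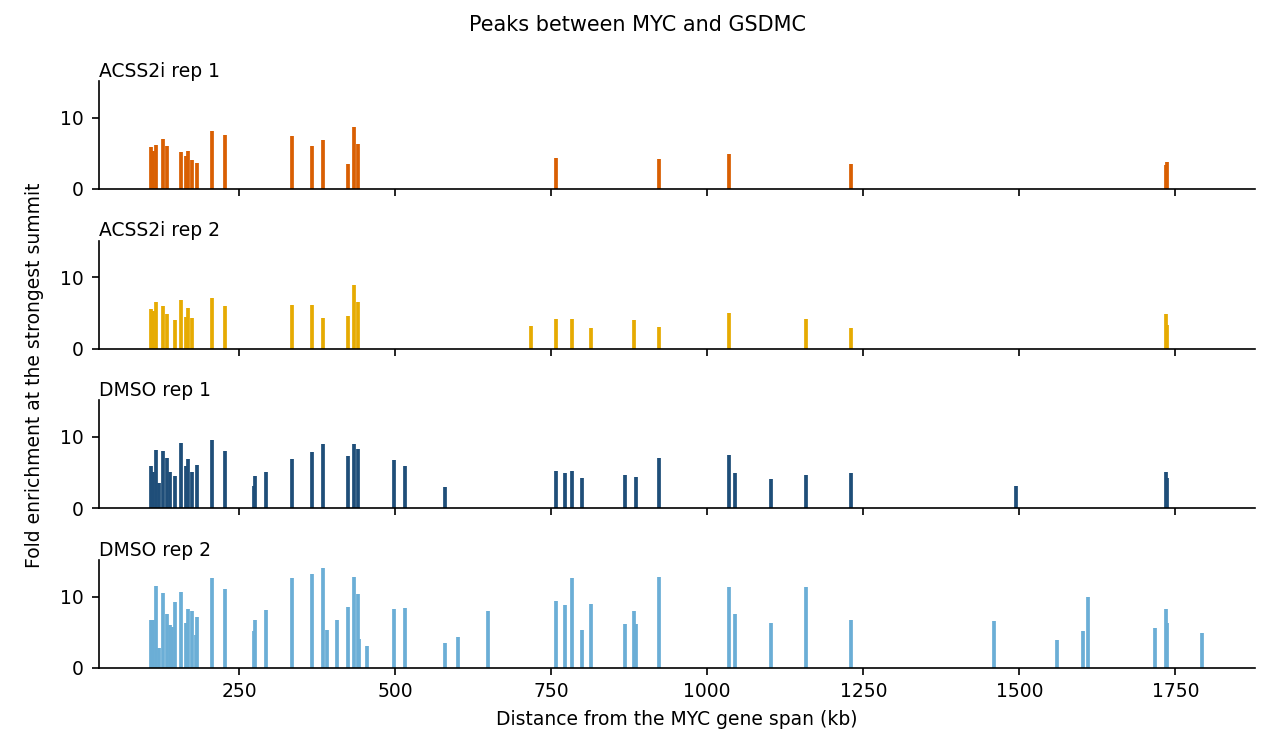
Fold enrichment at the strongest summit of each desert region between MYC and GSDMC, against its distance from the MYC gene span in kb, with 1 panel per library and ACSS2i above DMSO. ACSS2i replicates 1 and 2 show 24 and 29 bars, against 42 and 57 in DMSO.

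The desert between IGFBP3, which encodes a carrier of insulin-like growth factors, and TNS3 held 42 regions. Of these 10 and 16 had a peak in ACSS2i, against 29 and 41 in DMSO, and 10 of 28 were lost while 8 stayed in all 4. The desert between CRYBA4 and MN1 held 37, with 7 and 13 in ACSS2i, against 23 and 36 in DMSO. The desert between KLF4 and ACTL7B held 34, with 7 and 11 in ACSS2i, against 16 and 31 in DMSO. Over all deserts, 522 and 712 had at least 1 peak in ACSS2i, against 874 and 1019 in DMSO. At least 1 peak in each DMSO library was found in 849 deserts. Of these, 477 also had at least 1 peak in each ACSS2i library, 56.2%, not always at the same region. No ACSS2i peak at all was found in 172 of them.

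By the genes that border them, deserts next to HIF target genes held 132 regions, of which 59 bordered MYC and 42 bordered IGFBP3. Of those in both DMSO libraries 26 of 86 were lost, 30.2%, and 44 were in all 4, 51.2%. VEGFA, the gene of the main angiogenic growth factor, had 12 desert regions, of which 1 of 8 was lost and 6 were in all 4. The background is 42.8% lost and 31.7% in all 4 over all desert regions. The median DMSO percentile of the regions by HIF target genes was 60.3, beside 42.2 over all desert regions. The genes of a list share few deserts each, and nothing particular to the list was tested.

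Deserts of growth factor and cytokine genes held 205 regions. Of the 92 in both DMSO libraries 53 were lost, 57.6%, beside 42.8% of all desert regions and 33.5% of all regions. Their median DMSO percentile was 37.8, beside 42.2 over all desert regions, and the part of strength in this share was not tested. The chemokine gene CXCL12 lost 4 of 7, the axon guidance ligand gene SLIT2 lost 4 of 7 and the growth factor gene PDGFD lost 2 of 7. AP-1 and early response genes bordered 140 regions, and 30 of the 78 in both DMSO libraries were lost, 38.5%. KLF4 and KLF6, which encode zinc finger transcription factors, lost 4 of 14 and 7 of 21, and the phosphatase gene DUSP10 lost 11 of 21. Mesenchymal and matrix genes bordered 220, and 41 of the 104 in both DMSO libraries were lost, 39.4%. Among them were 12 of 20 by the hyaluronan synthase gene HAS2, 6 of 12 by ZEB2, whose product represses epithelial genes, and 5 of 12 by the cadherin gene CDH11.

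Developmental transcription factor genes bordered deserts most widely after neural adhesion genes, with 61 of 82 genes and 448 regions. Of the 211 of these regions in both DMSO libraries 88 were lost, 41.7%. SOX9, a gene for a transcription factor of cartilage, gonad and kidney, had 44 regions, with 15 and 19 in ACSS2i, against 25 and 41 in DMSO, and 7 of 24 lost. RUNX1 lost 3 of 15 and NR2F2 5 of 10. Kidney lineage genes bordered 96 regions, of which 18 were in ACSS2i lists alone, 18.75%. Of the 40 in both DMSO libraries 17 were lost, 42.5%. In this list CDH6, the gene of kidney cadherin, lost 2 of 5, HNF4G 0 of 3 and POU3F3 2 of 4. Over all protein-coding genes 9.72% border a desert with a region, against 74.4% of the developmental list and 81.1% of the neural adhesion list. The lists were chosen with earlier results of these data known, so these shares are a description.

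Neural adhesion and guidance genes, many of them very long, bordered 615 regions, of which 47.0% of those in both DMSO libraries were lost. Of the 615, 137 were in ACSS2i lists alone, 22.3%, beside 9.94% of all desert regions. In the other lists this share ran from 0.714% by AP-1 and early response genes to 18.75% by kidney lineage genes. CSMD3, on chromosome 8, had 42 regions, with 4 and 29 in ACSS2i, against 8 and 14 in DMSO, and 25 in ACSS2i lists alone. CDH9, a cadherin gene, had 1 and 21 of 44 in ACSS2i, against 12 and 25 in DMSO, with 15 in ACSS2i lists alone. PCDH7, a protocadherin gene, had 1 and 14 of 32 in ACSS2i, against 13 and 19 in DMSO, with 8 in ACSS2i lists alone. In all 3 the ACSS2i libraries were far apart, and ACSS2i replicate 2 gave most of these regions.

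Noncoding genes lay at 2297 desert regions, 37.2%, and 2048 were inside an lncRNA span. The 399 within 1 kb of an lncRNA end had a lost share of 31.5%, beside 42.5% for those in the body of an lncRNA and 33.5% of all regions. The share in all 4 libraries differed little, at 35.7% for the ends and 34.6% for the bodies, beside 42.2% of all regions. The median DMSO percentile was 50.8 at lncRNA ends, beside 42.6 in the bodies. The part of strength in the lost shares was not tested. Of the 615 regions over 100 kb from every annotated gene, 210 were in both DMSO libraries, and 102 of these were lost, 48.6%. Of all 615, 19.8% were in ACSS2i lists alone. Of 2964 windows at noncoding starts in deserts, 150 were overlapped by a desert region, 5.06%, through 139 regions. Of the 97 of these in both DMSO libraries 25 were lost, 25.8%, and 42 were in all 4, 43.3%, beside 33.5% and 42.2% of all regions. Their median DMSO percentile was 50.7, beside 42.2 over all desert regions. Among microRNA genes, MIR587 and MIR5087 each lay inside a desert region in all 4 libraries. The MIR587 region had a fold enrichment of 4.40 and 4.52 in ACSS2i, against 7.77 and 8.22 in DMSO, and that of MIR5087 had 5.31 and 2.995 in ACSS2i, against 6.34 and 9.41 in DMSO.

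The windows with a desert region differed in letters from the other desert windows. TGANTCA, the AP-1 letters seen in LINC01271, LOC389602 and LOC105369406 above, was in 30.0% of the 150 overlapped windows, 12.4% of the 2814 others and 7.71% of 35116 windows of all genes. GGGCGG was in 22.7%, 8.17% and 45.0% of the same sets. TATAAA was in 17.3%, 24.6% and 11.5%. ACGTG was in 17.3%, 14.4% and 21.4%, GGAATG in 19.3%, 17.3% and 14.0%, and CCAAT in 40.7%, 39.6% and 34.6%. The GC content was 50.2% in overlapped windows, 43.6% in the others and 57.5% in all, so letters rich in G and C move with it. A match of letters is a description and no sign of a bound factor.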

How the data were processed

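ATAC-seq was measured in 4 libraries of 786-O cells, grouped by the treatment in the labels, 2 ACSS2i and 2 DMSO. The submitters' processing notes list, with no role, MACS2 2.1.2, Bowtie2, Trimmomatic 0.38, Picard 2.18.26, deepTools 3.5.0, DiffBind, SAMtools 1.9, bcl2fastq 2.17 and bedtools, with hg38 as the build. For caller options, a Tn5 shift, duplicates and the filter, none is given in the sources used here. Each library has 1 deposited peak list of the authors, so peaks were called per library and not on pooled libraries. The deposited fold column is the ratio of the summit over local background, with 1 added to each. The −log10 p and −log10 q that the authors deposited are the peak caller's p-value and q-value, and the lowest −log10 q was 2.00 in each list. The deposited score only rescales q and had no use here, and the authors' summit offset in bp gave the position of the summit.

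Summits of 1 interval were counted as 1 peak with the values of the strongest. A region's strength is the percentile of its −log10 q within the library. Ranks were made within a list. Fold set side by side between libraries is relative to each library's own background, so such comparisons are descriptions. Read totals were not used here. The pileup and local background were solved from fold and −log10 p, which returned the deposited −log10 p within 0.001 for 100% of summits, and the genome background is the lowest level found.

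The RefSeq gene table (GRCh38.p14, the build of the files) gave the gene spans. It also holds genes of other scaffolds under chromosome names: 171 protein-coding rows out of start order were left out, which left 19866 genes. Exons, strand and sequence of the peaks themselves were not used here. Start windows were printed outside chromosome 8 only.

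Two-sided exact permutation compared the libraries, and intervals are exact binomial (Clopper-Pearson) and cover counting error only. Alternatives were a −log10 q of at least 5, equal list length, distances of 50 and 200 kb, genes of any type, an overlap of 100 bp, other gaps for clusters, the percentile of the fold, each library left out and the replicate block. The gene table as given and the removal of the longest gene-free stretches were added after seeing the data. The members and gene lists (7 lists, 354 entries, all matched) were chosen with earlier results of these data known. Named regions are the 8 strongest in DMSO and the 5 strongest lost, in full and at equal length. The 5 strongest in ACSS2i were taken among the regions of all 4 libraries. Also named are those gained, those farthest away, the 4 largest clusters and deserts and up to 3 genes per list. The 4 nearest to 100 kb on each side were named as well. All 8 gained regions were counted though the rule names 5. The region near FGF10 was named after its value was seen. The steps were tested on simulated data. Python 3.11.15, pandas 2.3.3, numpy 2.4.6, scipy 1.17.1 and matplotlib 3.10.9 were used.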

Additional observations from a re-analysis of the deposited data

How the results depend on the processing

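With lists of equal length the ratio of desert region numbers was 1.03, the difference in desert share 0.439 points and the difference in strength percentile 1.61, each with the opposite sign, and 68 regions were lost and 58 gained. The strength difference also turned to 5.72 at a −log10 q of at least 5 and to 0.834 with a distance of 50 kb. At that q, 544 of 2125 desert regions were in all 4 libraries, 25.6% beside 33.6% of all regions. Distances of 50 kb, 200 kb and 100 kb from genes of any type changed the members. Lost were 1824, 661 and 102, at 41.8%, 43.1% and 48.6%, beside 33.5% of all regions. In all 4 were 1439, 459 and 56, at 33.0%, 29.9% and 26.7%, beside 42.2%. Genes of any type gave 4 gained regions of 62, 6.45% beside 0.0897%. Without the longest gene-free stretches 5 of 885 were gained, 0.565% beside 0.0673% of all regions. A gap of 10 kb gave 258 clusters. Leaving out each library in turn gave number ratios of 0.273 to 0.518, share differences of -2.57 to 0.214, strength differences of -6.69 to 3.77, 1328 to 3456 lost, 8 to 538 gained and 876 to 1450 in all 4. The cause of these shifts was not tested, apart from the changed members.

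The replicate numbers do not pair the libraries by any label, and with 2 pairs the correlation of same-numbered libraries (0.196 over 881 desert regions) cannot decide it. With the replicate block the exact permutation p was 0.5 for the number ratio of 0.393, 0.5 for the share difference of -1.18 and 1 for the strength difference of -1.39, and 0.5 is the smallest p of this block. Read depth was not measured directly. A coverage level at hand, the genome background, was 2.32 and 3.16 reads in ACSS2i, against 2.06 and 1.75 in DMSO. The part of depth in the loss counts was not tested.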

Other observations

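The 4 deserts with most regions in ACSS2i lists alone were looked up after the values were seen. The desert between SNX16 and RALYL on chromosome 8 held 24 regions, of which 16 were in ACSS2i lists alone, and 0 and 18 had a peak in ACSS2i, against 4 and 8 in DMSO. The desert between KCNV1 and CSMD3 on chromosome 8 held 22, with 15 in ACSS2i lists alone, and 2 and 16 had a peak in ACSS2i, against 4 and 6 in DMSO. The desert between KHDRBS3 and FAM135B on chromosome 8 held 34, with 13 in ACSS2i lists alone, and 4 and 15 had a peak in ACSS2i, against 12 and 16 in DMSO. The desert between ANKRD7 and the potassium channel gene KCND2 on chromosome 7 held 19, with 11 in ACSS2i lists alone, and 2 and 11 had a peak in ACSS2i, against 4 and 7 in DMSO. In all 4 deserts ACSS2i replicate 1 had fewer peaks than either DMSO library. ACSS2i replicate 2 had more than either in 3 of them, but not between KHDRBS3 and FAM135B. The median fold enrichment in ACSS2i replicate 2 was 3.06, 3.16, 3.23 and 3.01 in the 4 deserts.

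Among desert regions of all 4 libraries with a gene on both sides, those farthest from a gene after the chromosome 1 region were a pair on chromosome 20. The region chr20:28562501-28563426, 2250 kb from LOC124904970, had a fold enrichment of 4.18 and 3.74 in ACSS2i, against 6.005 and 9.35 in DMSO. The region chr20:28602166-28603101 had 3.92 and 7.32 in ACSS2i, against 6.39 and 10.2 in DMSO. Both ACSS2i values were below both DMSO values in the first, and ACSS2i replicate 2 was above DMSO replicate 1 in the second.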
